A study of Mus musculus with 12 samples.

Results

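Ccl17 and 8 further genes of alternative activation were followed in RNA-seq data of mouse monocytes: the chemokine genes Ccl17 and Ccl22, the checkpoint ligand gene Pdcd1lg2, the lectin receptor genes Mgl2, Clec10a and Mrc1, the transcription factor gene Irf4, and the effector genes Arg1 and Retnla. They were taken by symbol from both gene tables, and all 9 were found, 9 of 23996 gene rows in each table. The genes were chosen by their FPKM levels and q2-over-q1 differences in these same tables, so their levels, differences and q-values are a description and no independent test. The samples fall into 4 groups of 3, all from C57Bl/6 mice. They are Ly6Clow (patrolling) monocytes with the treatment MDP (muramyl dipeptide, the bacterial cell wall fragment sensed by NOD2), Ly6Clow monocytes with placebo, Ly6Chigh (inflammatory) monocytes with MDP, and Ly6Chigh monocytes with placebo. The MDP titles carry a time of 16 h and the placebo titles read Naive with no time. The dose and route, the tissue the cells came from, the age of the mice and any pooling of animals are not given in the sources used here. Mice lacking NR4A1 or NOD2, which the study's design also names, were not analysed here.

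FPKM stands for fragments per kilobase of transcript, scaled for sequencing depth in a way not stated in the sources used here. Each subset has its own table with 1 FPKM value per condition, with no value per sample. No spread between replicates can therefore be given and the depth behind a value is unknown. Only the authors' own q-value carries the error of a difference, and a gene is called here where that q-value is under 0.05. The conditions are named q2 and q1. The sources used here do not say which of them is MDP, or whether both tables number the conditions alike, so a difference is given as q2 over q1 and a positive one means higher in q2. Whether samples came from separate animals is not stated either, so the q-values measure the spread between these samples, which may be technical. In bulk RNA, fewer cells of a type and less RNA per cell cannot be told apart.

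As background, alternative activation is the program that IL-4 and IL-13 set off in macrophages through their shared receptor chain and the transcription factor STAT6. It covers the chemokines CCL17 and CCL22, which draw in T cells through the receptor CCR4, lectins that take up sugars, and the secreted protein RELMalpha, encoded by Retnla. Ccl17 is also induced by GM-CSF through IRF4, and together with Ccl22, Mgl2 and Irf4 it is expressed by conventional dendritic cells as well as by macrophages.

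The sequences just upstream of the start sites were searched for the letters that STAT and IRF proteins are known to bind. Promoters of 300 bases, 250 before and 50 from the start site on, came from RefSeq (GRCm38.p6) and matched 7 of the 9 genes, all but Clec10a and Arg1. The STAT motif with a 3-base spacer was searched as TTCNNNGAA and with a 4-base spacer as TTCNNNNGAA, both of which read the same on either strand. The IRF element was searched as GAAANNGAAA and the ETS-IRF composite as GGAANNGAAA, on both strands, and these last motifs can overlap each other. Of 32544 promoters of this length, 8.33% hold the first, 6.98% the second, 3.45% the third and 2.73% the last. The 4 promoters shown are that of Ccl17, the gene with the largest difference, those of Retnla and Pdcd1lg2, the genes called lower in q2 of Ly6Clow monocytes, and that of Mgl2, whose pattern was among the closest to Ccl17. Capitals mark a match to a STAT motif. All 4 genes lie on the plus strand, and the windows are chr8:94810203-94810502 for Ccl17, chr16:48842359-48842658 for Retnla, chr19:29410669-29410968 for Pdcd1lg2 and chr11:70130107-70130406 for Mgl2.
Ccl17: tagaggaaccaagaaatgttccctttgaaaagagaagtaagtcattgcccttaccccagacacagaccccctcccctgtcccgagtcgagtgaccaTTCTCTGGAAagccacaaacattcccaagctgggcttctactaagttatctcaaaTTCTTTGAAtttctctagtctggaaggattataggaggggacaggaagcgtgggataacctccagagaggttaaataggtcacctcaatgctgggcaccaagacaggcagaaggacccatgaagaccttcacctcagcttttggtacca
Retnla: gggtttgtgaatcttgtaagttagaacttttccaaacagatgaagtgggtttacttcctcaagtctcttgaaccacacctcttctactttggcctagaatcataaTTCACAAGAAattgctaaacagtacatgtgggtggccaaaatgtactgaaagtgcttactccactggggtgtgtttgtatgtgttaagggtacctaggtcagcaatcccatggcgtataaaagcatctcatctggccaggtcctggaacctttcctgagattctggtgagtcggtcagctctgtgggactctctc
Pdcd1lg2: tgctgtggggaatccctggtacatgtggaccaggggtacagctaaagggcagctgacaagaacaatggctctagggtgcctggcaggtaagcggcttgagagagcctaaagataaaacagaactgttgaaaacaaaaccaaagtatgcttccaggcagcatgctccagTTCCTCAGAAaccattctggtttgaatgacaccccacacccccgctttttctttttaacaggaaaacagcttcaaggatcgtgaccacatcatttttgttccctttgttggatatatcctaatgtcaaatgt
Mgl2: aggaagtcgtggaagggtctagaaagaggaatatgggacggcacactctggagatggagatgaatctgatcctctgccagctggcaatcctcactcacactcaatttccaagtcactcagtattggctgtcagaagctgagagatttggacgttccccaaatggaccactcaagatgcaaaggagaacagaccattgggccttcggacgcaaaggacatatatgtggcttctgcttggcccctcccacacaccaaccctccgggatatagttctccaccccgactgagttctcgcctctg

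Ccl17 held 2 matches, a 4-base spacer match whose first base is at position -154 and a 3-base spacer match at -99, counted with the first transcribed base as 0. Retnla held 1 match of the 4-base kind at -145 and Pdcd1lg2 1 match at -82. The windows of Mgl2, Ccl22, Irf4 and Mrc1 held no match to any of the 4 motifs, which says only that these letters are not in those windows. A match is a description of the sequence and not a bound site. Of the 4 genes with a promoter entry that were called higher in q2 of Ly6Clow monocytes, Ccl17 alone held a match. Both genes called lower held one. Over all promoters searched, 8.33% held the 3-base and 6.98% the 4-base spacer motif. The genes are few and were chosen with their differences known, so nothing is read from these counts.

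Several of the 9 genes were at different levels in the subsets, which were not compared by a test. In Ly6Clow monocytes Ccl17, Mgl2, Clec10a and Retnla each reached 74.6 FPKM or more in condition q2. In Ly6Chigh monocytes Ccl17, Ccl22, Pdcd1lg2, Arg1 and Retnla stayed below 1 FPKM in both conditions, and Mgl2 was below 1 FPKM in q2 as well. In Ly6Clow monocytes no gene of the 9 was below 1 FPKM in q2, and Ccl22 and Arg1 were below it in q1. The values closest to that line in Ly6Chigh monocytes were Mgl2 in q1, at 1.1, and Ccl17 in q2, at 0.718.

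**Figure D1:**
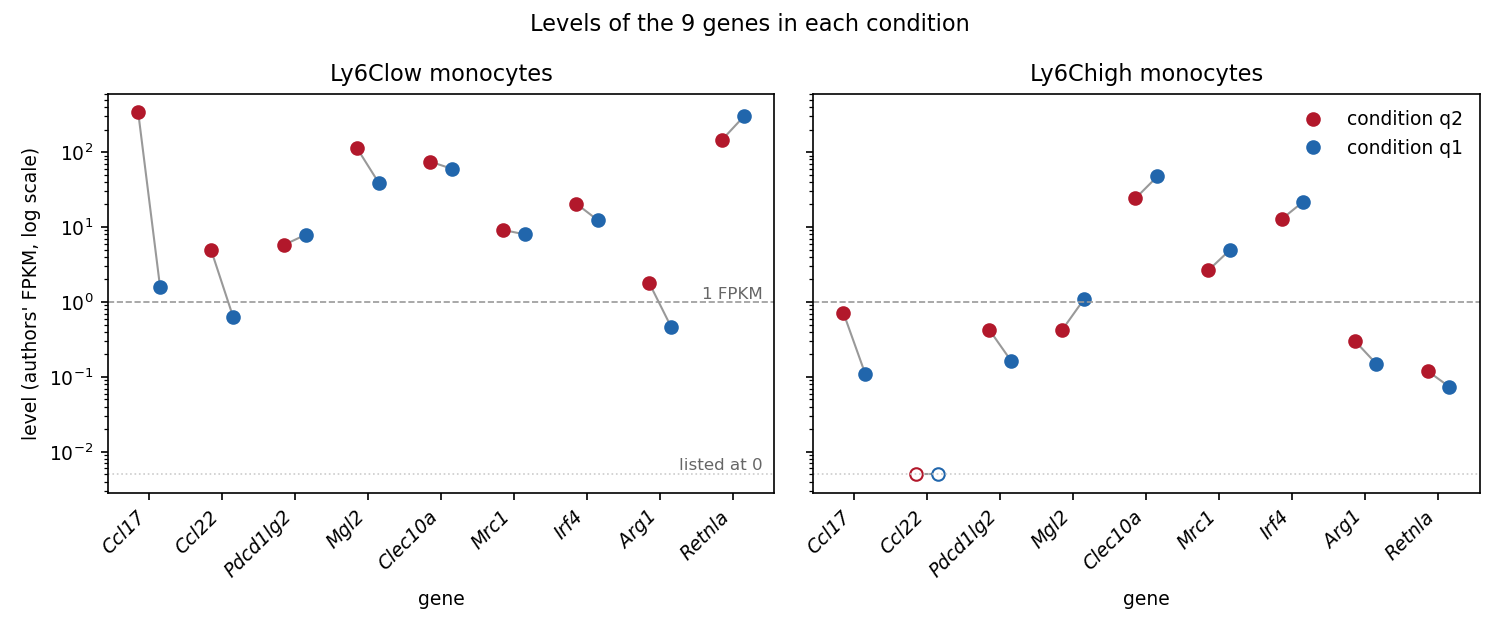
The authors' FPKM (log scale) of each of the 9 genes in Ly6Clow (left) and Ly6Chigh (right) monocytes, with 1 point for condition q2 (red) and 1 for q1 (blue) and no error bars because 1 value per condition was deposited. Open points are listed at 0, and the dashed line is 1 FPKM. Ccl17 stands at 347 in q2 and 1.61 in q1 of Ly6Clow monocytes, and 5 genes lie under the line in both conditions of Ly6Chigh monocytes.

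Among the ligands, Ccl17 had the largest difference. It lies on chromosome 8 at 94810453 to 94812036 (mm10), on the plus strand, and like the other 8 genes is protein-coding. In Ly6Clow monocytes it was at 347 FPKM in q2 and 1.61 in q1, a log2 fold change of 7.75 with q = 0.000418 in the authors' deposited table. That is the highest log2 fold change of the 12020 tested genes of the Ly6Clow table with a level above 0 in both conditions. By level it was at rank 268 of all rows in q2 and rank 9819 in q1. Its Ly6Chigh levels were 0.718 FPKM in q2 and 0.110 in q1, a log2 fold change of 2.71 that was not called (q = 0.451 in the authors' deposited table). The 2 values in Ly6Chigh monocytes are both under the lower value in Ly6Clow monocytes. Whether the differences of the subsets differ from each other was not tested, since the tables used here hold no value per sample.

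Ccl22 encodes the second ligand of CCR4 and lies on chromosome 8, 94745684 to 94751388, upstream of Ccl17. It was at 4.93 FPKM in q2 and 0.637 in q1 of Ly6Clow monocytes, 7.74-fold higher in q2 with q = 0.000418 in the authors' deposited table. With a pseudocount of 1 FPKM its log2 fold change was 1.86 in place of 2.95. For Ly6Chigh monocytes it was listed at 0 in q2 and at 0 in q1. So in q2 of Ly6Clow monocytes Ccl22 was called higher as Ccl17 was, at a level far under that of Ccl17 per unit of transcript length.

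Among 39 chemokine ligand genes, 12 were at 1 FPKM or more in q2 of Ly6Clow monocytes. Ccl17 ranked 2 among the 39 in q2, after Ccl6 at 508 FPKM, and 10 in q1. It made up 36.6% of the summed FPKM of chemokine ligands in q2 of Ly6Clow monocytes and 0.283% in q1. In Ly6Chigh monocytes its share was 0.0877% in q2 and 0.00942% in q1. The sum itself was 946 FPKM in q2 and 567 in q1 of Ly6Clow monocytes. Ccl9, another macrophage chemokine, was at 43.0 FPKM in q2 and 83.4 in q1 there. These ranks were chosen after the values were seen and are a description.

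**Figure D2:**
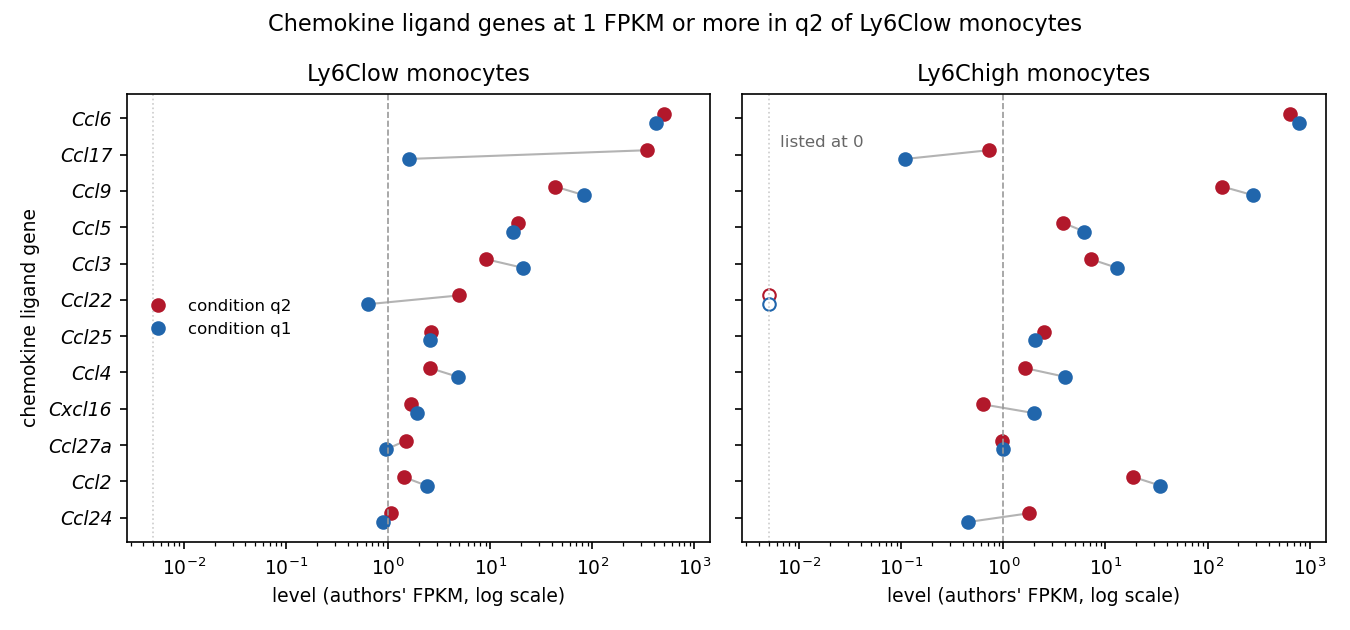
The authors' FPKM (log scale) of the 12 chemokine ligand genes at 1 FPKM or more in q2 of Ly6Clow monocytes, in order of that level, in Ly6Clow (left) and Ly6Chigh (right) monocytes, with q2 in red and q1 in blue. The dashed line is 1 FPKM and open points are listed at 0. Ccl17 is second in the order, and its 2 points in Ly6Clow monocytes, 347 and 1.61, are the farthest apart.

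Pdcd1lg2 encodes PD-L2, a ligand of the inhibitory T cell receptor PD-1 that IL-4 is known to induce in macrophages. It lies on chromosome 19, 29410919 to 29472927. In Ly6Clow monocytes it was at 5.79 FPKM in q2 and 7.93 in q1, a log2 fold change of -0.46 with q = 0.00271 in the authors' deposited table, and so was called lower in q2, opposite to Ccl17. Its Ly6Chigh levels were 0.423 FPKM in q2 and 0.162 in q1, not called (q = 0.0968 in the authors' deposited table). Cd274, its neighbour and the gene of the related ligand PD-L1, was more abundant in each condition. It was at 81.9 FPKM in q2 and 73.6 in q1 of Ly6Clow monocytes (q = 0.321 in the authors' deposited table). In Ly6Chigh monocytes Cd274 was at 9.82 FPKM in q2 and 3.57 in q1 (q = 0.000859 in the authors' deposited table), called higher.

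The lectin receptor genes Mgl2 and Clec10a encode the macrophage galactose-type lectins, which bind galactose and N-acetylgalactosamine. They are neighbours on chromosome 11, Mgl2 at 70130357 to 70137542 and Clec10a at 70166623 to 70170836, with 29080 bases between the rows. Mgl2 was at 112 FPKM in q2 and 38.3 in q1 of Ly6Clow monocytes, 2.92-fold higher in q2 with q = 0.000418 in the authors' deposited table. Its Ly6Chigh levels were 0.429 FPKM in q2 and 1.1 in q1 (q = 0.0939 in the authors' deposited table), the opposite direction at a low level and not called.

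Clec10a was abundant in both subsets. It was at 74.6 FPKM in q2 and 59.8 in q1 of Ly6Clow monocytes, a log2 fold change of 0.32 with q = 0.0207 in the authors' deposited table. In Ly6Chigh monocytes it was at 24.2 FPKM in q2 and 47.4 in q1, a log2 fold change of -0.97 with q = 0.000859 in the authors' deposited table. Clec10a was thus called in both tables, higher in q2 of Ly6Clow monocytes and lower in q2 of Ly6Chigh monocytes. In q2 of Ly6Clow monocytes Mgl2 was the more abundant of the pair, and in q1 Clec10a was.

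Mgl2 and Clec10a are close copies, so reads can be shared between them. Of the distinct 50-base words in GENCODE M21 transcripts, 13.1% of those of Mgl2 and 9.02% of those of Clec10a also occur in transcripts of another gene. In both cases 270 words were shared within the pair. None of the words of the other 7 genes occurred in another gene. The sources used here do not say how the authors assigned such reads, and Mgl2 stood at 0.429 FPKM beside Clec10a at 24.2 in q2 of Ly6Chigh monocytes.

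Mrc1 encodes the mannose receptor CD206 and lies on chromosome 2, 14229414 to 14332023. In Ly6Clow monocytes it was at 9.14 FPKM in q2 and 7.96 in q1 (q = 0.228 in the authors' deposited table), the 1 gene of the 9 not called there. Mrc1 was at 2.65 FPKM in q2 and 5.0 in q1 of Ly6Chigh monocytes, a log2 fold change of -0.91 with q = 0.00226 in the authors' deposited table. The microRNA row Mir511, whose locus overlaps Mrc1, was listed at 0 in all 4 values.

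Irf4 encodes the transcription factor through which Ccl17 is known to be induced, and lies on chromosome 13, 30749258 to 30766927. It was at 20.5 FPKM in q2 and 12.2 in q1 of Ly6Clow monocytes, a log2 fold change of 0.75 with q = 0.000418 in the authors' deposited table. Irf4 was called lower in Ly6Chigh monocytes, at 12.7 FPKM in q2 and 21.9 in q1, a log2 fold change of -0.78 with q = 0.0029 in the authors' deposited table. The Irf4 values of the subsets overlap, at 20.5 and 12.2 FPKM in Ly6Clow and 12.7 and 21.9 in Ly6Chigh monocytes. The part of Irf4 in the difference of Ccl17 was not tested. The relatives of Irf4 were chosen after their values were seen, and no direction of the family was tested. Of 8 tested Irf genes of Ly6Clow monocytes, beside 14.2% of all tested genes higher and 12.2% lower, 1 was called higher in q2, Irf4 itself, and 3 lower (Irf1, Irf2 and Irf8). Of 8 tested in Ly6Chigh monocytes, beside 7.07% higher and 7.54% lower, 0 were called higher and 5 lower (Irf1, Irf4, Irf7, Irf8 and Irf9).

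The effector gene Retnla lies on chromosome 16, 48842552 to 48844461. It was at 147 FPKM in q2 and 302 in q1 of Ly6Clow monocytes, a log2 fold change of -1.04 with q = 0.000418 in the authors' deposited table. Retnla was at 0.120 FPKM in q2 and 0.0737 in q1 of Ly6Chigh monocytes and was not tested by the authors. So Retnla was among the most abundant of the 9 genes in both conditions of Ly6Clow monocytes and close to 0 in Ly6Chigh monocytes. Its neighbour Retnlg, another gene of the resistin-like family, had the opposite difference in Ly6Clow monocytes, at 16.2 FPKM in q2 and 4.95 in q1 (q = 0.000418 in the authors' deposited table). Retnlb, the neighbour on the other side, was listed at 0 in all 4 values.

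Arg1 encodes arginase 1, which turns arginine into ornithine and urea, and lies on chromosome 10, 24915207 to 24927470, on the minus strand. In Ly6Clow monocytes it was at 1.79 FPKM in q2 and 0.464 in q1, 3.85-fold higher in q2 with q = 0.000418 in the authors' deposited table. With a pseudocount of 1 FPKM its log2 fold change was 0.93 in place of 1.94. Its Ly6Chigh levels were 0.306 FPKM in q2 and 0.149 in q1, and it was not tested. Arg1 was the lowest of the 9 genes in both conditions of Ly6Clow monocytes.

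In all, 8 of the 9 genes were called in the Ly6Clow table, 6 higher and 2 lower in q2, beside 26.3% of all 12042 tested genes (14.2% higher and 12.2% lower). Of the 9 genes 6 were tested in the Ly6Chigh table and 3 were called, 0 higher and 3 lower in q2, beside 14.6% of all 11626 tested genes (7.07% higher and 7.54% lower). Before adjustment, Mgl2 (p = 0.0175) and Pdcd1lg2 (p = 0.0182) of Ly6Chigh monocytes were also under 0.05 in the authors' deposited table. At a q-value under 0.01, 7 of the 9 were called for Ly6Clow monocytes, beside 18.2% of all tested genes, and 3 for Ly6Chigh monocytes, beside 9.08%. Where the difference also had to be 2-fold or more (log2 of 1), 5 were called for Ly6Clow monocytes, beside 5.52%, and 0 for Ly6Chigh monocytes, beside 6.44%. The median log2 fold change of the tested genes among the 9 was 0.75 in the Ly6Clow table, beside 0.00 over all tested genes, and -0.85 in the Ly6Chigh table, beside 0.00. The members were chosen with these differences known, so nothing is read from these shares.

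**Figure D3:**
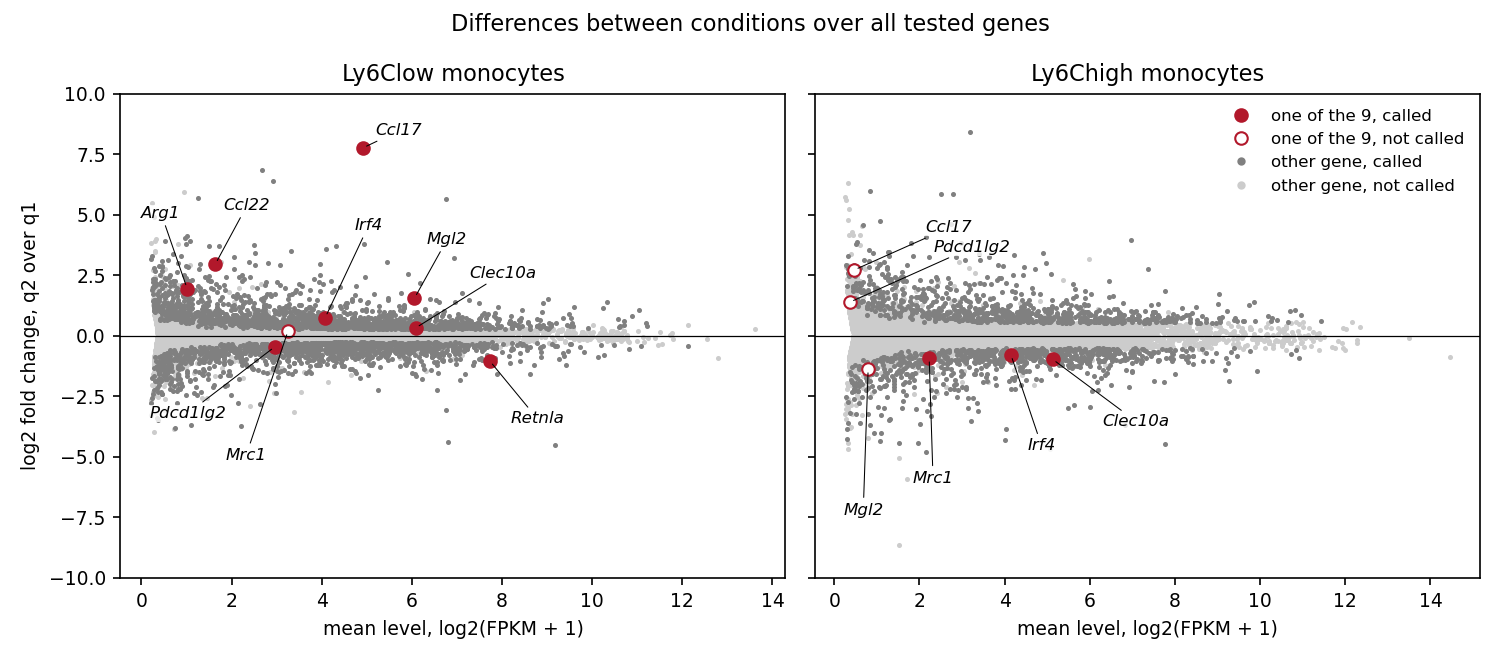
Log2 fold change of q2 over q1 (vertical axis) against the mean level as log2(FPKM + 1) for every tested gene with a level above 0 in both conditions, in Ly6Clow (left) and Ly6Chigh (right) monocytes, with those of the 9 genes that were tested in red, filled where called. Ccl22, Arg1 and Retnla were not tested in Ly6Chigh monocytes and are not in that panel. Ccl17 is the top point of the Ly6Clow panel at 7.75, and Clec10a, Irf4 and Mrc1 lie between -0.78 and -0.97 in the Ly6Chigh panel.

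The make-up of the 9 genes differed between the conditions of Ly6Clow monocytes. Their summed level was 722 FPKM in q2 and 431 in q1. In q2 Ccl17 made up 48.0% of that sum and Retnla 20.3%. In q1 Retnla made up 70.1% and Ccl17 0.372%. The order of levels in q2 ran from Ccl17 through Retnla, Mgl2, Clec10a, Irf4, Mrc1, Pdcd1lg2 and Ccl22 to Arg1. In q1 it ran from Retnla through Clec10a, Mgl2, Irf4, Mrc1, Pdcd1lg2, Ccl17 and Ccl22 to Arg1. With 1 value per condition, it cannot be said which neighbours in these orders differ beyond their spread. In Ly6Chigh monocytes the sum was 41.5 FPKM in q2 and 75.8 in q1, and Clec10a and Irf4 led in both conditions, with Clec10a at 58.2% in q2 and 62.5% in q1.

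Between the subsets, levels were set side by side with no test, since the tables may have been normalized separately. By the geometric mean of both conditions, with a pseudocount of 1 FPKM, 8 of the 9 genes were higher in Ly6Clow monocytes, beside 50.5% of 10985 genes with at least 1 FPKM in any condition, and 4 of the 9 were at least 4-fold higher, beside 1.49%. Retnla was 193-fold higher in Ly6Clow monocytes, Mgl2 38.4-fold, Ccl17 21.8-fold and Pdcd1lg2 6.06-fold higher, on the FPKM + 1 scale, which understates the ratio of low genes. With a pseudocount of 0.1 FPKM these ratios were over 1.5 times larger, 1079-fold for Retnla and 58.7-fold for Ccl17, and 5 of the 9 were at least 4-fold higher. With the pseudocount of 1 FPKM, Retnla had the highest ratio of all 10985 genes, Mgl2 ranked 4 and Ccl17 ranked 9. Irf4 was the exception, with a log2 ratio of -0.07. For Ccl17 the ratio was 202-fold with q2 of both tables and 2.35-fold with q1 of both. For Retnla it was 132-fold in q2 and 283-fold in q1. These pairings take both tables to number the conditions alike, which is not known, so they may set unlike conditions side by side.

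Ccl17, Cx3cl1 and Ccl22 form a chemokine cluster on chromosome 8. Cx3cl1, which encodes fractalkine, the ligand of CX3CR1, lies between the other two, 28026 bases from Ccl17. It was at 0.33 FPKM in q2 and 0.130 in q1 of Ly6Clow monocytes, called higher with q = 0.0188 in the authors' deposited table. In q2 of Ly6Chigh monocytes it was listed at 0, and in q1 it was at 0.0149. Ciapin1, the neighbour on the other side of Ccl17 at 7781 bases, was at 7.83 FPKM in q2 and 7.27 in q1 of Ly6Clow monocytes and was not called (q = 0.58 in the authors' deposited table). Within 100 kb of the start of Ccl17 there were 8 rows, itself included. Of the 8 tested in Ly6Clow monocytes 4 were higher in q2 by the authors' call and 0 lower, and of the 6 tested in Ly6Chigh monocytes 0 were called in either direction. Ccl22, Cx3cl1, Ccl17 and Ccdc102a were those called higher, and Ccdc102a was at 7.79 FPKM in q2 and 3.83 in q1. The shares over all tested genes were 14.2% higher and 12.2% lower in Ly6Clow monocytes and 14.6% called in Ly6Chigh monocytes. The window was chosen after the values were seen, and 2 of the 4, Ccl17 and Ccl22, are among the 9 genes themselves, so nothing is read from the count.

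**Figure D4:**
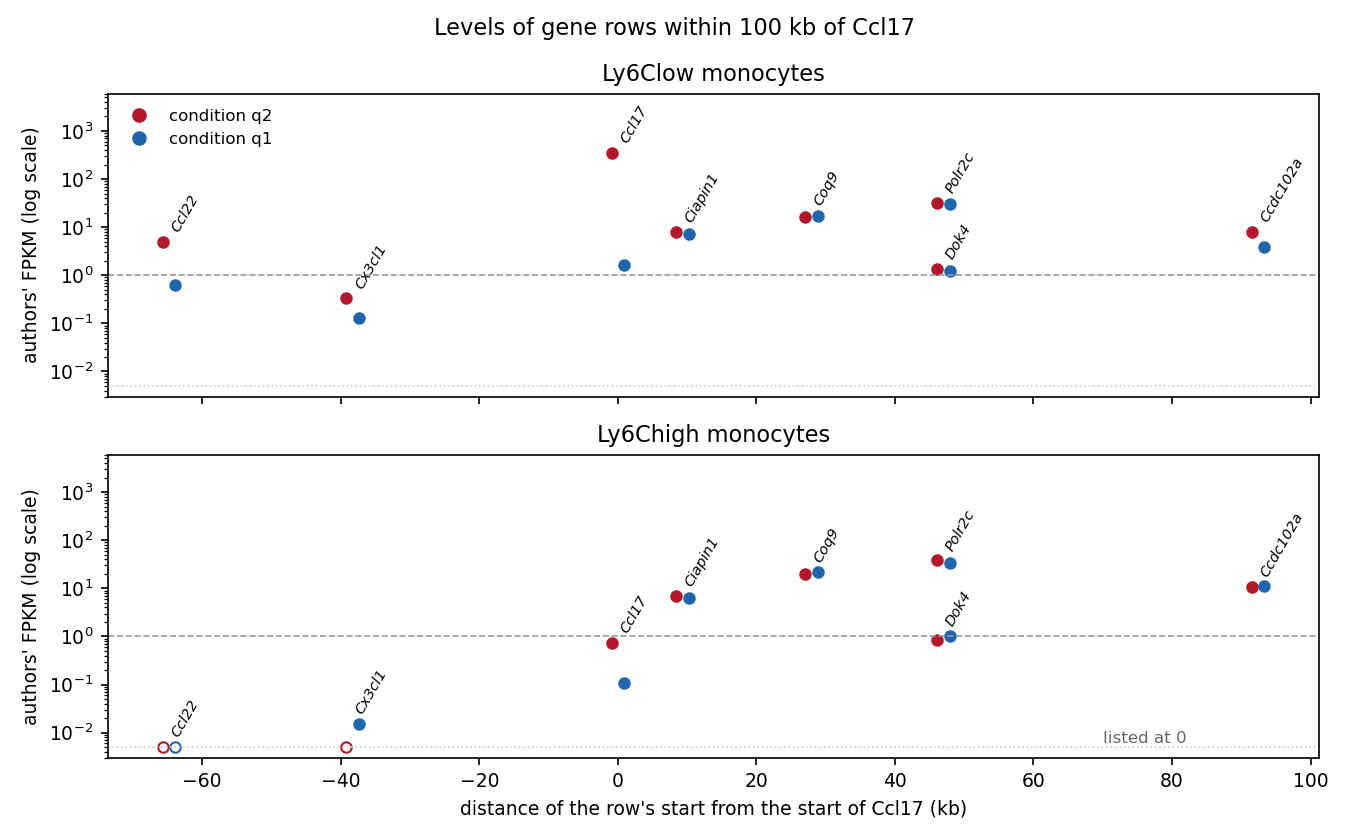
The authors' FPKM (log scale) of each gene row within 100 kb of the start of Ccl17, against the distance of its start from that of Ccl17 in kb, in Ly6Clow (top) and Ly6Chigh (bottom) monocytes, with q2 in red and q1 in blue. Open points are listed at 0 and the dashed line is 1 FPKM. The points of Ccl17 and Ccl22 lie far apart in Ly6Clow monocytes, while those of Ciapin1, at 7.83 and 7.27, nearly coincide.

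Among the other neighbours of the 9 genes, some were called in Ly6Clow monocytes, some were not, and some were low. Dusp22, a phosphatase gene beside Irf4, was at 43.9 FPKM in q2 and 33.8 in q1 of Ly6Clow monocytes (q = 0.0297 in the authors' deposited table), while Exoc2 on its other side was at 16.9 in q2 and 15.2 in q1 (q = 0.321 in the authors' deposited table). Akap7, beside Arg1, was at 3.94 FPKM in q2 and 6.93 in q1 of Ly6Clow monocytes and was called lower (q = 0.000418 in the authors' deposited table). Asgr2, a lectin gene of the asialoglycoprotein receptor beside Mgl2, was at 1.64 FPKM in q2 and 0.995 in q1 of Ly6Clow monocytes and was not called (q = 0.0603 in the authors' deposited table). For Ly6Chigh monocytes it was at 0.122 FPKM in q2 and 1.17 in q1, not called either (q = 0.121 in the authors' deposited table). The rows Pllp, A930007I19Rik, Slc16a11, Tmem236, Slc39a12 and Mir6905 were below 1 FPKM in every condition.

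The genes whose pattern was closest to Ccl17 were sought by the Euclidean distance between log2(FPKM + 1) values over the 4 conditions, each gene centred on its own mean, among 6757 genes with at least 10 FPKM in any condition and tested in both tables. The measure rests on 4 values that share their libraries, and no p is given. The closest was Ccnd2, the gene of cyclin D2, at a distance of 3.83. It was at 31.5 FPKM in q2 and 7.28 in q1 of Ly6Clow monocytes and at 1.59 in q2 and 0.363 in q1 of Ly6Chigh monocytes. Mgl2 was next at 4.09, followed by Adamdec1 at 4.26, the lectin gene Cd209c at 4.30 and Gm4956 at 4.37. Even these genes were not near Ccl17 in each value. In q1 of Ly6Clow monocytes Mgl2 was at 38.3 FPKM and Ccl17 at 1.61. Mgl2 was also lower in q2 of Ly6Chigh monocytes, where Ccl17 was not. Cd209c was at 41.5 FPKM in q2 and 14.5 in q1 of Ly6Clow monocytes. Clec10a came at rank 288 of 6756 and Irf4 at rank 1103. Ccl22, Pdcd1lg2, Mrc1, Arg1 and Retnla did not pass the filter on level and testing and were not ranked.

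The wider pathway was followed through 6 lists covering 81 matched genes, none of them among the 9. For Ly6Clow monocytes, 61 were tested, 22 of them called higher and 12 lower in q2. For Ly6Chigh monocytes, 62 were tested, 12 of them called higher and 8 lower. Over all tested genes, 14.2% were higher and 12.2% lower in the Ly6Clow table, and 7.07% and 7.54% in the Ly6Chigh table. These shares are also the background of the count of each list that follows. The lists were chosen with earlier results of these data known.

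Of the IL-4 and IL-13 signalling list, 3 were called higher and 2 lower of 13 tested in the Ly6Clow table, with a median log2 fold change of 0.02. Il4ra, the receptor chain shared by both cytokines, was at 43.2 FPKM in q2 and 28.0 in q1 of Ly6Clow monocytes (q = 0.000418 in the authors' deposited table). Il13ra1, its partner for IL-13, was lower, at 43.0 FPKM in q2 and 62.8 in q1 (q = 0.000418 in the authors' deposited table). Tyk2, a kinase bound to these receptors, was at 54.0 FPKM in q2 and 38.2 in q1 of Ly6Clow monocytes (q = 0.000418 in the authors' deposited table). Stat6 was at 143 FPKM in q2 and 158 in q1 of Ly6Clow monocytes and at 133 in q2 and 141 in q1 of Ly6Chigh monocytes, and was called in neither table (q = 0.405 and 0.865 in the authors' deposited tables). Neither cytokine reached 1 FPKM: Il4 was at most 0.387 FPKM and Il13 at most 0.0336. Of 12 tested in Ly6Chigh monocytes, 1 was called, Cish, which encodes a feedback inhibitor induced by STAT5. Cish was called higher in both tables. It was at 31.5 FPKM in q2 and 0.272 in q1 of Ly6Clow monocytes, 116-fold higher (q = 0.000418 in the authors' deposited table), and at 22.3 in q2 and 0.384 in q1 of Ly6Chigh monocytes, 58.0-fold higher (q = 0.000859 in the authors' deposited table).

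In the list of GM-CSF receptor genes and IRF4 partners, 4 were called higher and 4 lower of 10 tested in the Ly6Clow table, with a median log2 fold change of -0.06. Csf2rb encodes the signalling beta chain shared by the receptors of GM-CSF, IL-3 and IL-5, and Csf2rb2 a beta chain for IL-3 found in mice. Csf2rb2 was at 32.9 FPKM in q2 and 9.33 in q1, and Csf2rb at 149 in q2 and 73.2 in q1 (each q = 0.000418 in the authors' deposited table). These 2 genes are near-identical copies, so the split of reads between them is uncertain. Csf2ra, another GM-CSF receptor gene, was called lower at 268 FPKM in q2 and 333 in q1 (q = 0.0338 in the authors' deposited table). Batf3, a partner of IRF4 and IRF8 on DNA, was at 44.6 FPKM in q2 and 20.8 in q1, and Stat5b was called lower at 44.6 in q2 and 70.6 in q1 (each q = 0.000418 in the authors' deposited table). Of 10 tested in Ly6Chigh monocytes, 0 were called higher and 1 lower, Irf8, at 97.0 FPKM in q2 and 176 in q1 (q = 0.000859 in the authors' deposited table). Csf2, the gene of GM-CSF itself, was at most 0.0351 FPKM.

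Other alternative activation genes went both ways. Of 18 tested in Ly6Clow monocytes, 8 were called higher and 4 lower in q2, with a median log2 fold change of 0.21. Socs2, another feedback inhibitor of cytokine signalling, was at 4.22 FPKM in q2 and 0.0812 in q1, and Mmp12, the macrophage elastase gene, at 2.56 in q2 and 0.146 in q1 (each q = 0.000418 in the authors' deposited table). The scavenger receptor gene Cd163 and the lipid receptor gene Trem2 were called lower, Cd163 at 1.14 FPKM in q2 and 6.30 in q1 and Trem2 at 1.78 in q2 and 12.7 in q1. Of 18 tested in Ly6Chigh monocytes, 6 were called higher and 4 lower, with a median of 0.45. Socs2 was at 2.11 FPKM in q2 and 0.0338 in q1 of Ly6Chigh monocytes (q = 0.0146 in the authors' deposited table). Cd163 and Trem2 were called lower there too, Cd163 at 0.353 in q2 and 1.70 in q1 and Trem2 at 26.6 in q2 and 56.7 in q1. Myc was at 11.2 FPKM in q2 and 2.50 in q1, and Pparg, a nuclear receptor gene of lipid metabolism, was called lower at 2.35 in q2 and 9.27 in q1 (each q = 0.000859 in the authors' deposited table). Myc was called higher and Pparg lower in Ly6Clow monocytes as well (each q = 0.000418 in the authors' deposited table). Their levels there were 4.38 FPKM in q2 and 2.43 in q1 for Myc and 49.3 in q2 and 115 in q1 for Pparg. Chil3, which encodes the chitinase-like protein Ym1, had the reverse distribution of Retnla. It was at 3.18 FPKM in q2 and 4.43 in q1 of Ly6Clow monocytes and at 1395 in q2 and 963 in q1 of Ly6Chigh monocytes, and was called in neither table. Chil3 was singled out after its values were seen.

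**Figure D5:**
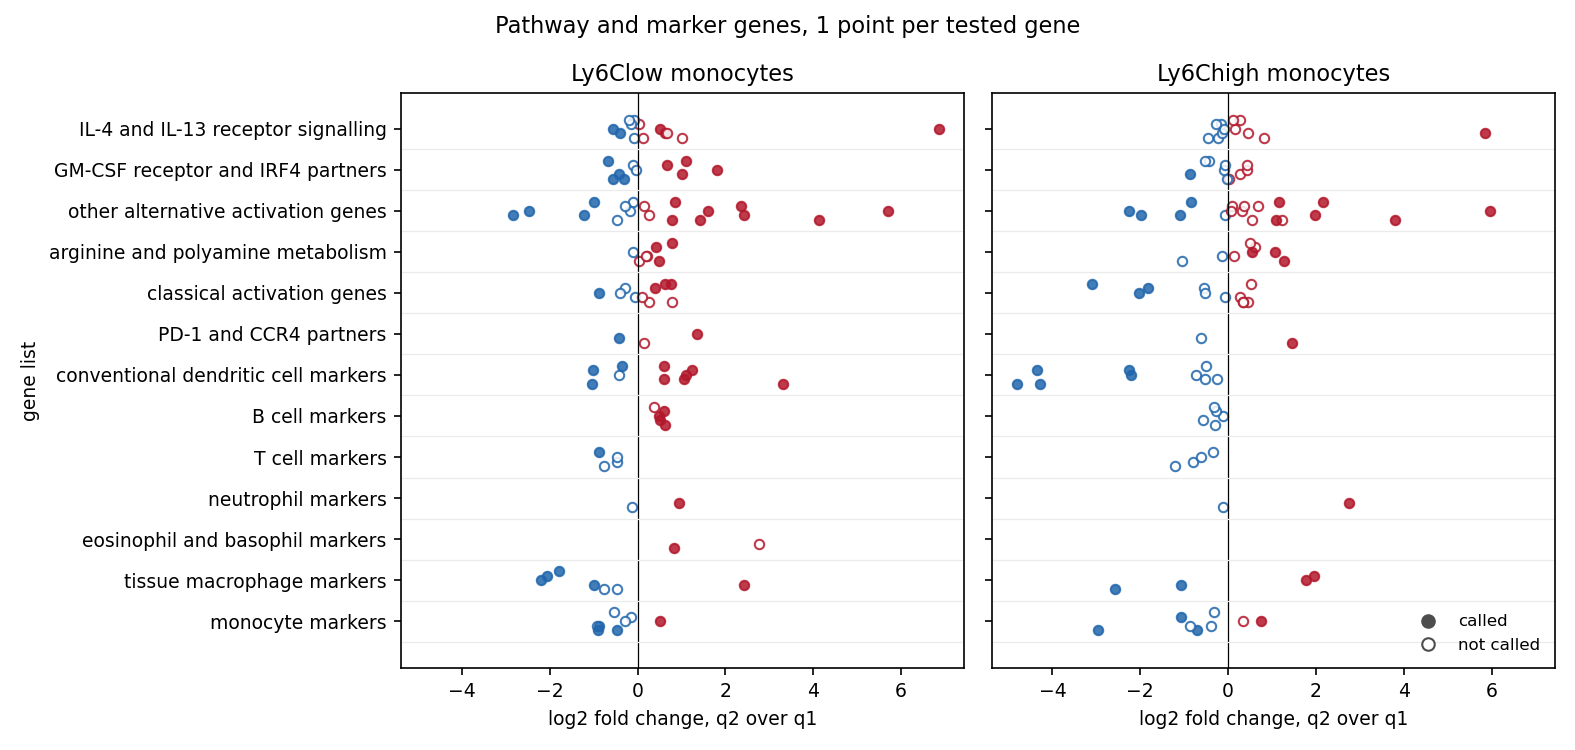
Log2 fold change of q2 over q1 for each tested gene of the 6 pathway lists and 7 marker lists, in Ly6Clow (left) and Ly6Chigh (right) monocytes, filled where called, red above 0 and blue below. Genes at 0 in a condition are left out. Cish, in the top list, and Socs2, in the list of other alternative activation genes, are the points beyond 5 in both panels.

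The list of arginine and polyamine genes was short. Of 7 tested in Ly6Clow monocytes, 3 were called higher and 0 lower, beside 14.2% and 12.2% of all tested genes. Of 8 tested in Ly6Chigh monocytes, 3 were called higher and 0 lower, beside 7.07% and 7.54%. With so few genes and such shares, the 0 lower says nothing about a direction of the list. Calls of 2-fold or more numbered 0 in Ly6Clow and 2 in Ly6Chigh monocytes. Srm, the spermidine synthase gene, was at 13.7 FPKM in q2 and 7.99 in q1 of Ly6Clow monocytes and at 19.5 in q2 and 8.12 in q1 of Ly6Chigh monocytes. Odc1, which makes putrescine from ornithine, was at 29.0 FPKM in q2 and 20.7 in q1 of Ly6Clow monocytes. Asl, which makes arginine, was at 28.1 FPKM in q2 and 20.9 in q1 of the same cells (q = 0.00271 in the authors' deposited table). In Ly6Chigh monocytes the arginine transporter gene Slc7a1 was at 6.67 FPKM in q2 and 3.15 in q1, and Oat, which breaks down ornithine, at 37.8 in q2 and 25.9 in q1 (q = 0.000859 and 0.0431 in the authors' deposited table). Nos2, whose enzyme competes with arginase for arginine, was at most 0.036 FPKM in any condition, and Arg2 at most 0.953.

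Of the classical activation list, 3 of 10 tested were called higher and 1 lower in the Ly6Clow table, and 1 of 12 higher and 3 lower in the Ly6Chigh table. Il1b, the gene of IL-1beta, was called lower in both, at 41.1 FPKM in q2 and 75.3 in q1 of Ly6Clow monocytes and at 6.25 in q2 and 25.7 in q1 of Ly6Chigh monocytes. Cxcl10, an interferon-induced chemokine gene, was called lower in Ly6Chigh monocytes, at 3.02 FPKM in q2 and 25.8 in q1, a log2 fold change of -3.09 (q = 0.000859 in the authors' deposited table). Gpr18 was called lower too, at 9.24 FPKM in q2 and 32.6 in q1 of these cells (q = 0.0169 in the authors' deposited table). Cd86, a costimulatory ligand gene, was called higher in Ly6Clow monocytes, at 14.2 FPKM in q2 and 9.21 in q1, as were Socs3, at 72.7 in q2 and 55.2 in q1, and Cd38, at 4.79 in q2 and 2.85 in q1. In the list of PD-1 and CCR4 partners, 1 of 3 tested was called higher and 1 lower in the Ly6Clow table. The gene called higher there was Cx3cl1, at 0.33 FPKM in q2 and 0.130 in q1. Cx3cl1 encodes the ligand of CX3CR1, so no listed partner of PD-1 or CCR4 was called higher in Ly6Clow monocytes. For Ly6Chigh monocytes, 1 of 2 tested was called higher, Cd274, and 0 lower. Rgmb, whose product binds PD-L2, was called lower in Ly6Clow monocytes, at 3.53 FPKM in q2 and 4.75 in q1 (q = 0.0317 in the authors' deposited table). Ccr4, the receptor for both chemokines, was at most 0.0231 FPKM, so the ligands were measured in cells with almost no transcript of their receptor.

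Markers of other cells were read beside these genes, since Ccl17, Ccl22, Mgl2 and Irf4 also mark dendritic cells. Monocyte genes were abundant in both tables: Csf1r, the receptor gene of macrophage colony stimulating factor, was at 717 FPKM in q2 and 991 in q1 of Ly6Clow monocytes and at 392 in q2 and 640 in q1 of Ly6Chigh monocytes. Of the monocyte markers 1 of 8 was called higher and 3 lower in each table. Over all tested genes, 14.2% were higher and 12.2% lower in the Ly6Clow table, and 7.07% and 7.54% in the Ly6Chigh table. These shares are also the background of the marker counts that follow. In Ly6Clow monocytes Itgam was called higher, at 339 FPKM in q2 and 238 in q1. Cx3cr1, the fractalkine receptor gene, was called lower at 134 in q2 and 250.5 in q1, as was Nr4a1, a nuclear receptor gene these cells depend on, at 819 in q2 and 1514 in q1. In Ly6Chigh monocytes Spn was called higher, at 140 FPKM in q2 and 82.8 in q1. Cx3cr1 was called lower there at 22.6 in q2 and 175 in q1, a log2 fold change of -2.96, and the chemokine receptor gene Ccr2 at 278 in q2 and 581 in q1. The part of these monocyte markers in the differences of the 9 genes was not tested. Ly6c2, whose product defines the subsets, was at 3.98 FPKM in q2 and 5.78 in q1 of Ly6Clow monocytes and at 1054 in q2 and 1312 in q1 of Ly6Chigh monocytes.

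Of the 10 dendritic cell markers, 6 were called higher and 3 lower in q2 in the Ly6Clow table, beside 14.2% and 12.2% of all tested genes. Their summed level was 298 FPKM in q2 and 199 in q1. Most of that sum was Cd209a alone, at 194 FPKM in q2 and 129 in q1. Kmo, Batf3 and Zbtb46 were called higher, Kmo at 20.4 FPKM in q2 and 8.60 in q1, Zbtb46 at 7.88 FPKM in q2 and 3.76 in q1, and the migration gene Fscn1 was at 1.88 in q2 and 0.190 in q1. Flt3, the receptor of a dendritic cell growth factor, and Clec9a, which detects dead cells, were called lower with log2 fold changes of -1.03 and -1.01, Clec9a at 1.51 FPKM in q2 and 3.05 in q1. None was at 0. Of 9 tested in Ly6Chigh monocytes, 0 were called higher and 5 lower, with a summed level of 50.6 FPKM in q2 and 163 in q1, and Flt3 stood at 0.454 in q2 and 12.6 in q1. Clec9a was at 0.140 FPKM in q2 and 2.87 in q1, Cd209a at 3.17 in q2 and 62.1 in q1, and Dpp4 at 2.86 in q2 and 13.7 in q1 of Ly6Chigh monocytes, all called lower. Dendritic cell markers were thus called in each table beside several of the 9 genes, and their part in these differences was not tested.

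B cell markers were called higher for 4 of 5 in the Ly6Clow table, with a summed level of 231 FPKM in q2 and 158 in q1, and for 0 of 5 in the Ly6Chigh table, at 61.0 in q2 and 80.4 in q1. In Ly6Clow monocytes Cd79a was at 79.6 FPKM in q2 and 51.6 in q1, Cd79b at 92.4 in q2 and 64.9 in q1, and Ms4a1 at 20.2 in q2 and 13.3 in q1. Their part was not tested. Of 7 tissue macrophage markers 1 was called higher, Marco, and 4 lower in Ly6Clow monocytes, where they summed to 59.99 FPKM in q2 and 170 in q1. Of 4 such markers tested in Ly6Chigh monocytes 2 were called higher and 2 lower, and the 7 summed to 62.2 FPKM in q2 and 129 in q1. Marco was at 3.38 FPKM in q2 and 0.629 in q1 of Ly6Clow monocytes, while Emr1 was at 39.4 in q2 and 135 in q1, Siglec1 at 0.276 in q2 and 1.16 in q1 and Vsig4 at 0.297 in q2 and 1.37 in q1. C1qa was called lower in Ly6Clow monocytes as well, at 14.6 FPKM in q2 and 29.1 in q1. In Ly6Chigh monocytes Siglec1, at 3.38 FPKM in q2 and 20.1 in q1, and Emr1, at 50.5 in q2 and 106 in q1, were called lower, and C1qa, at 6.78 in q2 and 1.73 in q1, and Mertk, at 1.26 in q2 and 0.372 in q1, higher. T cell markers summed to 2.54 FPKM in q2 and 3.81 in q1 of Ly6Clow monocytes, with 0 of 4 higher and 1 lower, and to 2.02 in q2 and 3.40 in q1 of Ly6Chigh monocytes, with 0 called. Eosinophil and basophil markers, whose cells can express Retnla or Il4, summed to 2.11 FPKM in q2 and 0.980 in q1 of Ly6Clow monocytes, with 1 of 2 tested higher, and to 0.332 in q2 and 0.351 in q1 of Ly6Chigh monocytes. Epx was listed at 0 in both conditions of Ly6Clow monocytes, and Prg2 and Cpa3 in both conditions of Ly6Chigh monocytes. Of the neutrophil markers, S100a8, which monocytes also express, was called higher in both tables, at 9.59 FPKM in q2 and 5.03 in q1 of Ly6Clow monocytes and at 422 in q2 and 62.9 in q1 of Ly6Chigh monocytes, while Ngp, Camp, Ltf and Mmp9 were below 1 FPKM in every condition. The part of these cells in the differences was not tested.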

How the data were processed

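RNA of 2 monocyte subsets was sequenced in 12 samples, and 2 gene tables, with 1 value per condition, were used. Per the submitters' processing notes, the authors used Trimmomatic 0.33, TopHat2 2.0.14, Bowtie2 2.2.5, Cufflinks 2.21 and Cuffdiff 2.21 with the build mm10; their settings were not stated. The deposited levels stand in a Cuffdiff layout, per the file headers, and were read as FPKM, the unit that tool writes. The deposited p-value and q-value, and the test statistic, a score, are the authors' own, per the file headers, with a smallest p-value of 5e-05. Each table was assigned to a subset by its name. The tables used here hold no value per sample, so no replicate could be left out.

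The log2 fold change of q2 over q1 was computed from the deposited FPKM with Python 3.11.15 and pandas 2.3.3. Calls (q-value under 0.05, test status OK) matched the authors' flag in all 23996 rows of each table. Alternatives were a q-value under 0.01, a log2 fold change of 1 or more in size, a minimum of 1 FPKM, pseudocounts of 1 and 0.1, and centring on the median. Text names the 9 genes, their nearest rows, the 5 genes closest to Ccl17, and up to 4 called genes per list and table, at 1 FPKM or more, with the largest log2 fold change; all other genes, chemokine and Irf genes included, were added after their values were seen. A gene that falls under this rule is not reported here. Of 130 list entries, 3 were not matched and 2 were matched by an older symbol. Members and lists were chosen with earlier results of these data known. Calculations were tested on simulated data. Loci are those of the tables, written 1-based, in mm10.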

Additional observations from a re-analysis of the deposited data

How the results depend on the processing

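No paired analysis was possible because the tables hold no value per sample, and for the same reason leaving out a replicate was not run. When a log2 fold change of 1 or more in size was required too, the called genes among the 9 numbered 5 in place of 8 in the Ly6Clow table and 0 in place of 3 in the Ly6Chigh table, and the pathway genes 14 in place of 34 in the Ly6Clow table. The 3 calls in Ly6Chigh monocytes (Clec10a, Irf4 and Mrc1) are thus all under 2-fold, as are those of Irf4, Clec10a and Pdcd1lg2 in Ly6Clow monocytes. At a q-value under 0.01 the counts among the 9 were 7 and 3, with Clec10a of the Ly6Clow table no longer called. With a minimum of 1 FPKM they stayed 8 and 3. The pathway counts in the Ly6Chigh table lay between 16 and 20 over these alternatives. The number of the 9 genes higher in Ly6Clow than in Ly6Chigh monocytes was 8 with either pseudocount and in q1 alone, and 9 in q2 alone, where Irf4 was higher too. The number at least 4-fold higher was 4, and 5 with a pseudocount of 0.1, 5 in q2 alone and 3 in q1 alone. The counts in q2 alone and q1 alone take both tables to number the conditions alike, which is not known. With a pseudocount of 0.1 the ratio was 1079-fold in place of 193-fold for Retnla, 82.1 in place of 38.4 for Mgl2, 58.7 in place of 21.8 for Ccl17 and 18.6 in place of 6.06 for Pdcd1lg2. A pseudocount of 1 brought the log2 fold change of Ccl17 in Ly6Chigh monocytes to 0.63 in place of 2.71, that of Mgl2 to -0.56 in place of -1.36 and that of Pdcd1lg2 to 0.29 in place of 1.38, none of them called. Low levels limit the Ly6Chigh values of Ccl17, Ccl22, Pdcd1lg2, Arg1 and Retnla, all below 1 FPKM.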
